A study of Homo sapiens with 4 samples.

Results

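The 10 genes described here encode 8 integrin subunits of white blood cells (ITGAM, ITGAX, ITGAL, ITGA4, ITGA5, ITGAV, ITGB1 and ITGB2), osteopontin (SPP1), a secreted integrin ligand, and CD44, the hyaluronan receptor. They were chosen by name, as rows of the deposited array table whose annotation gives exactly 1 gene symbol. Each of the 10 has 1 such probe set, so the rule of taking the brightest probe set per gene decided nothing for them, and they are 10 of 18377 genes measured. MOLM-14, an established human acute myeloid leukemia line, was treated in RPMI1640 with FBS in 2 groups. The 2 DZNep samples received 2 µM of the drug (3-deazaneplanocin A) for 24 h and the 2 DMSO samples received the solvent for 24 h. DZNep inhibits S-adenosylhomocysteine hydrolase and thereby lowers many methylation reactions, among them that of histone H3 lysine 27 by EZH2. Each sample was hybridised to 1 Affymetrix whole-transcript array. All samples are 1 cell line, and where the labels say biological replicate they do not say whether these were separate cultures. The p-values therefore rest on the spread between these arrays, which may be technical. The test also draws each gene's spread toward that of all genes, with a prior worth 7.18 degrees of freedom against 2 residual ones.

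Integrins are pairs of an alpha and a beta chain that span the membrane and bind matrix proteins or counter-receptors on other cells. On leukocytes the beta-2 chain pairs with ITGAL (LFA-1), ITGAM (Mac-1) or ITGAX (p150,95), and the beta-1 chain pairs with ITGA4 (VLA-4), ITGA5 (the fibronectin receptor) or ITGAV. In myeloid leukemia, VLA-4 and CD44 are known for holding leukemic cells in the bone marrow niche. Osteopontin is bound by ITGAV and ITGA4 integrins and by CD44, and macrophages are one of its known sources.

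Log2 intensity medians of the 4 arrays lay between 6.99 and 7.08. Over all genes, the SD of the log2 difference was 0.14 between the DZNep arrays and 0.20 between the DMSO arrays. Of 12 markers of monocytic and myeloid leukemia cells, 10 were measured, with log2 intensities from 6.55 to 12.82. Their summed intensity was 13894 and 13732 on the DZNep arrays, against 13176 and 13044 on the DMSO arrays. LYZ, the brightest of them, weighs most in this linear sum, which does not show the direction of the other markers. Its log2 intensities were 12.82 and 12.72 with DZNep, against 12.15 and 12.32 with DMSO. Of the 10, 2 rose (LYZ and CSF1R) and 1 fell (FLT3), 30% of the list against 10.3% of all genes. The part of this marker shift in the results below was not tested. The 26 measured markers of T, B, NK, erythroid, megakaryocytic, fibroblast and epithelial cells had log2 intensities of 4.55 to 8.14 with DZNep and 4.52 to 7.94 with DMSO, and 1 of them was called, DCN at 0.36. Their summed intensity was 2588 and 2522 with DZNep and 2318 and 2596 with DMSO. The table holds no detection call, so the log2 intensity at which a probe set leaves background is unknown.

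DZNep was compared with DMSO to find which adhesion transcripts differed after 24 h of the drug. SPP1 rose and ITGB1 fell, and the other 8 genes did not pass the test. SPP1 was 2.54-fold higher with DZNep, and ITGB1 was 1.45-fold lower with DZNep. The tests come from limma fitted on all 18377 genes, with Benjamini-Hochberg adjustment over all of them and a threshold of 0.05 on the adjusted p. Of the 10 genes, 1 was called higher, against 3.62% of all genes, and 1 was called lower, against 6.68% of all genes, so that 20% of the members and 10.3% of all genes were called in either direction. The members were picked with earlier results of these arrays known, and these shares are a description. In total RNA of a whole culture, fewer cells of a type and less RNA per cell cannot be told apart.

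**Figure D1:**
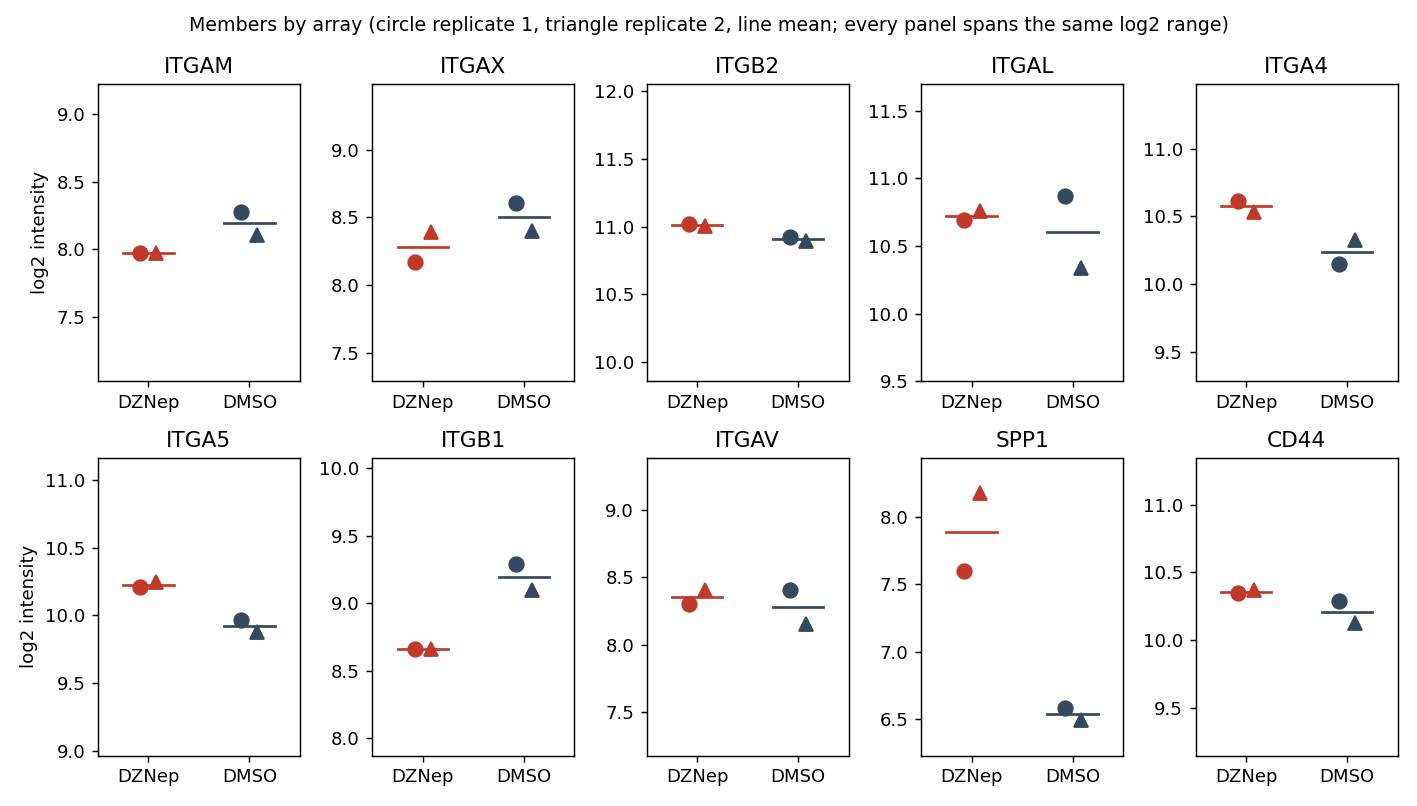
Log2 intensity of the 10 genes on each array, DZNep arrays in red on the left and DMSO arrays in dark blue on the right of each panel; circles are replicate 1, triangles replicate 2, lines the mean of 2 arrays, and every panel spans an equal log2 range. SPP1 lies at 7.60 and 8.17 with DZNep against 6.59 and 6.49 with DMSO, while ITGB1 lies at 8.66 and 8.66 against 9.29 and 9.10.

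SPP1, the ligand among the members, had deposited intensities of 194 and 288 with DZNep, against 96.2 and 90.1 with DMSO. On the log2 scale these were 7.60 and 8.17 with DZNep and 6.59 and 6.49 with DMSO. Both DZNep arrays lay above both DMSO arrays, and the DZNep arrays also stood well apart from each other. The mean was 7.89 ± 0.40 with DZNep and 6.54 ± 0.07 with DMSO (SD, n = 2 arrays each), a log2 difference of 1.35 (limma, SE 0.16, 95% interval 0.98 to 1.71, adjusted p = 0.00113). SPP1 ranked 68 of 18377 genes by the size of its log2 difference. The gap of 0.57 between its DZNep arrays was at least as wide as the gap of 99.8% of all genes, whose median gap was 0.08. For SPP1, limma drew the SE toward the smaller spread of most genes. Its interval is therefore narrower than its own 4 arrays alone would give. Against single DMSO arrays, single DZNep arrays differed by 1.01 to 1.68 on the log2 scale, so the direction was shared by all 4 array pairs while the size was not fixed well. The log2 difference was 1.63 without DZNep replicate 1 and 1.06 without DZNep replicate 2. SPP1 was in the dimmer 50% of genes by mean log2 intensity, and subtracting 16 from every intensity gave a log2 difference of 1.52.

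Promoter sequences are shown for SPP1 and ITGB1 because these are the 2 genes that passed the test, in opposite directions. Both are the 250 bases before the transcript start, 5′ to 3′, from RefSeq on GRCh38.p14. That of SPP1 is on the plus strand at chr4:87975464-87975713, and that of ITGB1 is on the minus strand at chr10:32958231-32958480. SPP1 has 1 window listed and ITGB1 has 2, of which the one at the outermost start is shown. Capitals mark matches to 5 short motifs on either strand, which are ACCACA (RUNX core), GAGGAA (PU.1 core), GGGCGG (the GC box), TGANTCA (AP-1) and TATAAA (a core promoter element, the TATA box). No 2 matches overlap in either window.
SPP1: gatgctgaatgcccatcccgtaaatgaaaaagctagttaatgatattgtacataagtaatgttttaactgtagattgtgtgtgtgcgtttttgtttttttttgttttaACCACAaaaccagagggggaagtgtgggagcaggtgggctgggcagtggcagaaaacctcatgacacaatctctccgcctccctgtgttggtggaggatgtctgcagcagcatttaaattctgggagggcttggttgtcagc
ITGB1: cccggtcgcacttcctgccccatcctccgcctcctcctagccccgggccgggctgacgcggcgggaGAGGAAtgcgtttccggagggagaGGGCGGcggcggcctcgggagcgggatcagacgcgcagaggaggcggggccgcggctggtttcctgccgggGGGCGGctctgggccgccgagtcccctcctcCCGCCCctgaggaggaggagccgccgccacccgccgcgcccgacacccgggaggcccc

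The windows differ in base composition. The SPP1 window is 44.8% G and C with 3 CpG dinucleotides, and 22.9% of all 35116 promoter windows have fewer. The ITGB1 window is 78.4% G and C with 32 CpG dinucleotides, and 90.5% of all windows have fewer. SPP1 holds 1 RUNX core, at position -142, and none of the other 4 motifs; 11% of all windows hold a RUNX core. ITGB1 holds 1 PU.1 core, found in 23.6% of all windows, and 3 GC boxes, found in 42.6%. The AP-1 motif (6.57% of all windows) and the TATA box (10.7%) were in no window of the 7 members matched, which are ITGAM, ITGA4, ITGA5, ITGB1, ITGAV, SPP1 and CD44. Among these 7 windows the CpG count went from 2 in ITGAM and 3 in SPP1 through 12 in ITGA5, 15 in CD44, 18 in ITGAV and 25 in ITGA4 to 32 in ITGB1. A motif match describes letters only, and no binding or methylation was measured in these samples.

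ITGB1, the beta chain shared by VLA-4 and the fibronectin receptor, had intensities of 405 and 404 with DZNep, against 625 and 547 with DMSO. Its log2 intensities were 8.66 and 8.66 with DZNep and 9.29 and 9.10 with DMSO. Both DZNep arrays lay below both DMSO arrays and nearly coincided. The log2 difference was -0.53 (limma, SE 0.10, 95% interval -0.76 to -0.30, adjusted p = 0.0113), and all 4 array pairs gave a fall, between -0.63 and -0.43. Its adjusted p stayed at or under 0.035 under each of the 15 alternatives run.

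ITGA4 and ITGA5, alpha chains that pair with ITGB1, were higher on both DZNep arrays but did not pass the test. ITGA4, the alpha chain of VLA-4, had log2 intensities of 10.62 and 10.53 with DZNep, against 10.15 and 10.33 with DMSO. Its log2 difference was 0.34 (limma, SE 0.10, 95% interval 0.11 to 0.57), and it missed the threshold with an adjusted p of 0.0728. ITGA5, which binds fibronectin, had log2 intensities of 10.21 and 10.25 with DZNep, against 9.97 and 9.88 with DMSO. Its log2 difference was 0.30 (limma, SE 0.10, 95% interval 0.09 to 0.52, adjusted p = 0.0792). For both genes the interval of the single gene lies above 0 although the p adjusted over all genes does not pass. Both passed under quantile normalization (limma adjusted p = 0.0357 for ITGA4 and 0.0218 for ITGA5), with an intensity trend (0.00931 and 0.0129) and without the dimmest 50% of genes (0.0303 and 0.032). ITGA5 also passed under cyclic loess normalization (limma adjusted p = 0.0312), and ITGA4 also passed without DMSO replicate 2, at 0.43.

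ITGAV, the chain that with several beta partners recognises osteopontin and other RGD proteins, had log2 intensities of 8.30 and 8.41 with DZNep, against 8.41 and 8.15 with DMSO. The groups overlapped, since DMSO replicate 1 was above both DZNep arrays. Its log2 difference was 0.07 (limma, 95% interval -0.18 to 0.32, adjusted p = 0.8), and it was -0.056 without DMSO replicate 2. Its other beta partners ITGB3, ITGB5, ITGB6 and ITGB8, named here after their values were seen, had log2 differences of 0.10, -0.03, 0.28 and 0.10 (limma adjusted p = 0.66, 0.942, 0.231 and 0.681), and none passed. ITGB6 had log2 intensities of 5.74 and 6.04 with DZNep, against 5.52 and 5.70 with DMSO. Its groups did not overlap, as in 49.7% of all genes, and its nearest DZNep and DMSO arrays differed by 0.033. The groups of ITGB3, ITGB5 and ITGB8 overlapped.

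**Figure D2:**
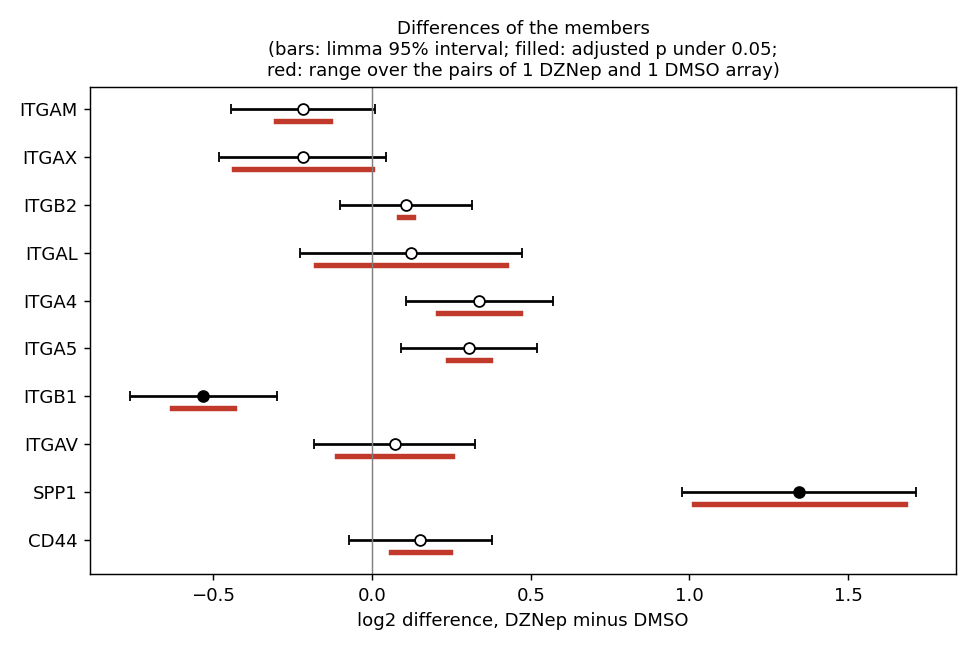
Log2 difference, DZNep minus DMSO, of the 10 genes on the horizontal axis; black bars are limma 95% intervals, filled points passed the adjusted threshold, and red bars are the range over the 4 pairs of 1 DZNep and 1 DMSO array. SPP1 at 1.35 and ITGB1 at -0.53 are filled, and the intervals of ITGA4 and ITGA5 lie above 0 without passing the adjusted test.

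None of the 4 genes of the beta-2 family passed the limma test, where 10.3% of all genes did. With 4 genes, a count of 0 is no result about the family. Of the 4, 0 had an unadjusted p under 0.05, a threshold not counted over all genes. ITGB2, their common beta chain, had log2 intensities of 11.021 and 11.005 with DZNep, against 10.92 and 10.89 with DMSO. Its groups did not overlap, but the log2 difference was 0.11 (limma, 95% interval -0.10 to 0.31, adjusted p = 0.6). ITGAL, the alpha chain of the ICAM receptor LFA-1, had log2 intensities of 10.69 and 10.76 with DZNep, against 10.87 and 10.33 with DMSO. The DZNep arrays lay between the DMSO arrays, whose gap of 0.53 was at least as wide as that of 99.1% of all genes. Its log2 difference was 0.12 (limma, SE 0.16, 95% interval -0.23 to 0.47, adjusted p = 0.741), with values of 0.39 without DMSO replicate 1 and -0.14 without DMSO replicate 2.

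ITGAM and ITGAX, the myeloid alpha chains that bind the complement fragment iC3b, are next to each other among protein-coding genes in the RefSeq table, with ITGAD after them. ITGAM had log2 intensities of 7.97 and 7.97 with DZNep, against 8.28 and 8.11 with DMSO. ITGAX had log2 intensities of 8.17 and 8.40 with DZNep, against 8.61 and 8.40 with DMSO. Both DZNep arrays were the lower ones in each gene, but for ITGAX the nearest DZNep and DMSO arrays differed by only 0.0013. The log2 difference was -0.22 for both, with limma 95% intervals of -0.45 to 0.01 for ITGAM (adjusted p = 0.246) and -0.48 to 0.04 for ITGAX (adjusted p = 0.331). ITGAM was at -0.13 without DMSO replicate 1, and ITGAX was at -0.11 without DZNep replicate 1, -0.11 without DMSO replicate 1 and -0.33 without DZNep replicate 2. ITGAD, which is no member, had a log2 difference of -0.01 (limma adjusted p = 0.976). ITGAM is a usual surface marker of myeloid maturation, and its transcript was not higher with DZNep on either array. Among the 10 measured myeloid markers, LYZ (0.53) and CSF1R (0.47) were called higher, FLT3 (-0.94) was called lower and 7 were not called. ITGAM alone therefore does not describe maturation, which was not tested.

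CD44, which binds hyaluronan and osteopontin, had log2 intensities of 10.34 and 10.37 with DZNep, against 10.29 and 10.12 with DMSO. Its groups were separate by 0.06 at the nearest arrays. The log2 difference was 0.15 (limma, SE 0.10, 95% interval -0.07 to 0.38, adjusted p = 0.451), with values of 0.23 without DMSO replicate 1 and 0.070 without DMSO replicate 2. CD44 is spliced into many isoforms, and 1 probe set value per gene does not tell them apart.

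The arrays of the 2 groups did not overlap for 8 of the 10 genes. Of these, 5 had both DZNep arrays above both DMSO arrays (SPP1, ITGA4, ITGA5, ITGB2 and CD44), against 25.9% of all genes, and 3 had both below (ITGB1, ITGAM and ITGAX), against 23.9% of all genes. In either direction the share over all genes was 49.7%. The median log2 difference of the 10 genes was 0.11 and that of all genes was 0.02.

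Among the other 17 integrin subunits measured of 18 listed, 1 rose and 1 fell, and 15 did not pass. Those called were 11.8% of the list, against 10.3% of all genes. ITGB7, the other beta chain that pairs with ITGA4 and the receptor chain for the gut addressin MADCAM1, had log2 intensities of 9.29 and 9.61 with DZNep, against 8.56 and 8.47 with DMSO. It was 1.91-fold higher, a log2 difference of 0.94 (limma, SE 0.12, adjusted p = 0.00146), which was 0.78 without DZNep replicate 2. The beta partners of ITGA4 thus moved in opposite directions, ITGB1 lower and ITGB7 higher, each by its own test. ITGA6, a laminin receptor chain that pairs with ITGB1, had log2 intensities of 5.61 and 5.23 with DZNep, against 6.48 and 5.88 with DMSO. Its log2 difference of -0.76 (limma, SE 0.19, adjusted p = 0.0331) became -0.47 without DMSO replicate 1 (adjusted p = 0.14). It also missed the threshold under cyclic loess normalization (adjusted p = 0.0516), with every probe set tested (adjusted p = 0.108) and with 16 subtracted (adjusted p = 0.0617). The median over the 17 subunits was 0.03.

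Of 28 integrin ligands measured, 3 rose and none fell by the limma test, 10.7% of the list against 10.3% of all genes. At an unadjusted p under 0.05, 4 were higher and 1 was lower. That threshold was not counted over all genes, so these counts give no direction for the list. The lower one was ICAM2, a counter-receptor of LFA-1, at -0.39 (limma adjusted p = 0.0512), which was named after its value was seen. In 7 of the 15 alternatives, 1 ligand was called lower. These were the fits without the dimmest 25% or the dimmest 50% of genes, under median centring and under cyclic loess normalization. The others were the fits with an intensity trend, with the replicate block and with the crossed replicate block. The median log2 difference was 0.11. C3, the complement protein whose fragment is the ligand of ITGAM and ITGAX, had log2 intensities of 10.28 and 10.23 with DZNep, against 9.20 and 9.01 with DMSO. It was 2.22-fold higher (limma, log2 difference 1.15, SE 0.10, adjusted p = 0.000268). The receptor chains ITGAM and ITGAX, near -0.22, and their beta chain ITGB2, at 0.11, did not pass the test. PECAM1, an adhesion molecule of leukocytes and endothelium, rose 1.99-fold, a log2 difference of 0.99 (limma adjusted p = 0.000369), and its other probe set had 0.92. EDIL3, a secreted RGD protein that binds ITGAV integrins, had log2 intensities of 5.94 and 5.77 with DZNep, against 5.49 and 5.29 with DMSO. EDIL3 was among the dimmest 25% of genes by mean log2 intensity and was not tested in either dim filter. Its log2 difference of 0.46 (limma adjusted p = 0.0296) lost its call under cyclic loess normalization (adjusted p = 0.051) and with every probe set tested (adjusted p = 0.0725). It also lost it without DMSO replicate 2, at 0.36, and without DZNep replicate 1, at 0.38. Without a DZNep array every gene was given an equal standard error, 0.17, against 0.11 for EDIL3 with all 4 arrays.

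Of 35 genes measured that activate integrins or link them to the cytoskeleton, 1 rose and none fell by limma. This was 2.86% of the list, against 10.3% of all genes, and the list median was -0.01. At an unadjusted p under 0.05, 5 were higher and 0 were lower. That threshold was not counted over all genes, so these counts give no direction for the list. The one that rose was LYN, a SRC family kinase of myeloid cells, at 0.39 (limma adjusted p = 0.0395). LYN lost its call under median centring (0.35, limma adjusted p = 0.0779), with every probe set tested (adjusted p = 0.0782) and with 16 subtracted (adjusted p = 0.0882). It also lost it without DMSO replicate 2, at 0.30, and without DZNep replicate 1 or 2, at 0.38 and 0.40. Without a DZNep array every gene was given an equal standard error, 0.17, against 0.10 for LYN with all 4 arrays. The talin TLN1 and the kindlin FERMT3, which bind beta tails and switch integrins on, had log2 differences of 0.04 and -0.16 (limma adjusted p = 0.861 and 0.453); they are named here after their values were seen.

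Of 21 genes measured that make or bind hyaluronan or act with CD44, none rose by limma and 2 fell. This was 9.52% of the list, against 10.3% of all genes, and the list median was 0.02. At an unadjusted p under 0.05, a threshold not counted over all genes, 3 were higher and 3 were lower. HMMR, a hyaluronan-binding protein that also serves at the mitotic spindle, had log2 intensities of 7.19 and 7.15 with DZNep, against 7.92 and 8.24 with DMSO. It was 1.88-fold lower with DZNep (limma, log2 difference -0.91, SE 0.12, adjusted p = 0.00152). RDX, radixin, one of the proteins that tie the CD44 tail to actin, had a log2 difference of -0.36 (limma adjusted p = 0.044). RDX lost its call with the replicate block (limma adjusted p = 0.057), with every probe set tested (adjusted p = 0.077) and with 16 subtracted (adjusted p = 0.0847). It also lost it without DMSO replicate 1, at -0.32, and without DZNep replicate 1 or 2, at -0.32 and -0.39. Without a DZNep array every gene was given an equal standard error, 0.17, against 0.095 for RDX with all 4 arrays.

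**Figure D3:**
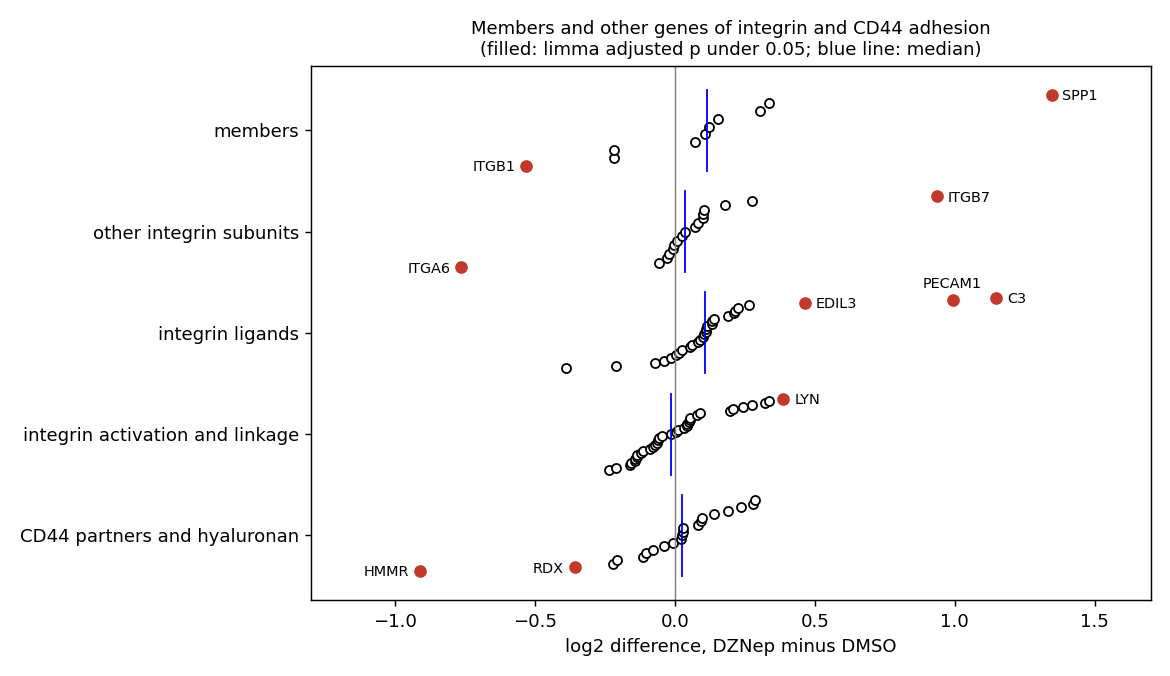
Log2 difference, DZNep minus DMSO, of the members and of 4 lists of adhesion genes, 1 point a gene, sorted within each list; red points passed the limma threshold and are named, and blue lines are medians. The list medians lie between -0.01 and 0.11, and the named genes lie apart from them, from HMMR at -0.91 to SPP1 at 1.35.

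The genes whose pattern over the 4 arrays was nearest to that of SPP1 were LPAR6, CTSK and S100A8. Likeness was the Euclidean distance between log2 values centred on each gene's mean, which was 0.23 for LPAR6, 0.24 for CTSK and 0.31 for S100A8. LPAR6 is a lysophosphatidic acid receptor and S100A8 a calcium-binding protein of myeloid cells. CTSK, the cysteine protease cathepsin K, had log2 intensities of 8.14 and 8.39 with DZNep, against 6.96 and 6.80 with DMSO. In all 3 genes, as in SPP1, DZNep replicate 2 was the highest array, which comes from choosing them by likeness to SPP1. With 4 arrays, likeness of this kind is a description.

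**Figure D4:**
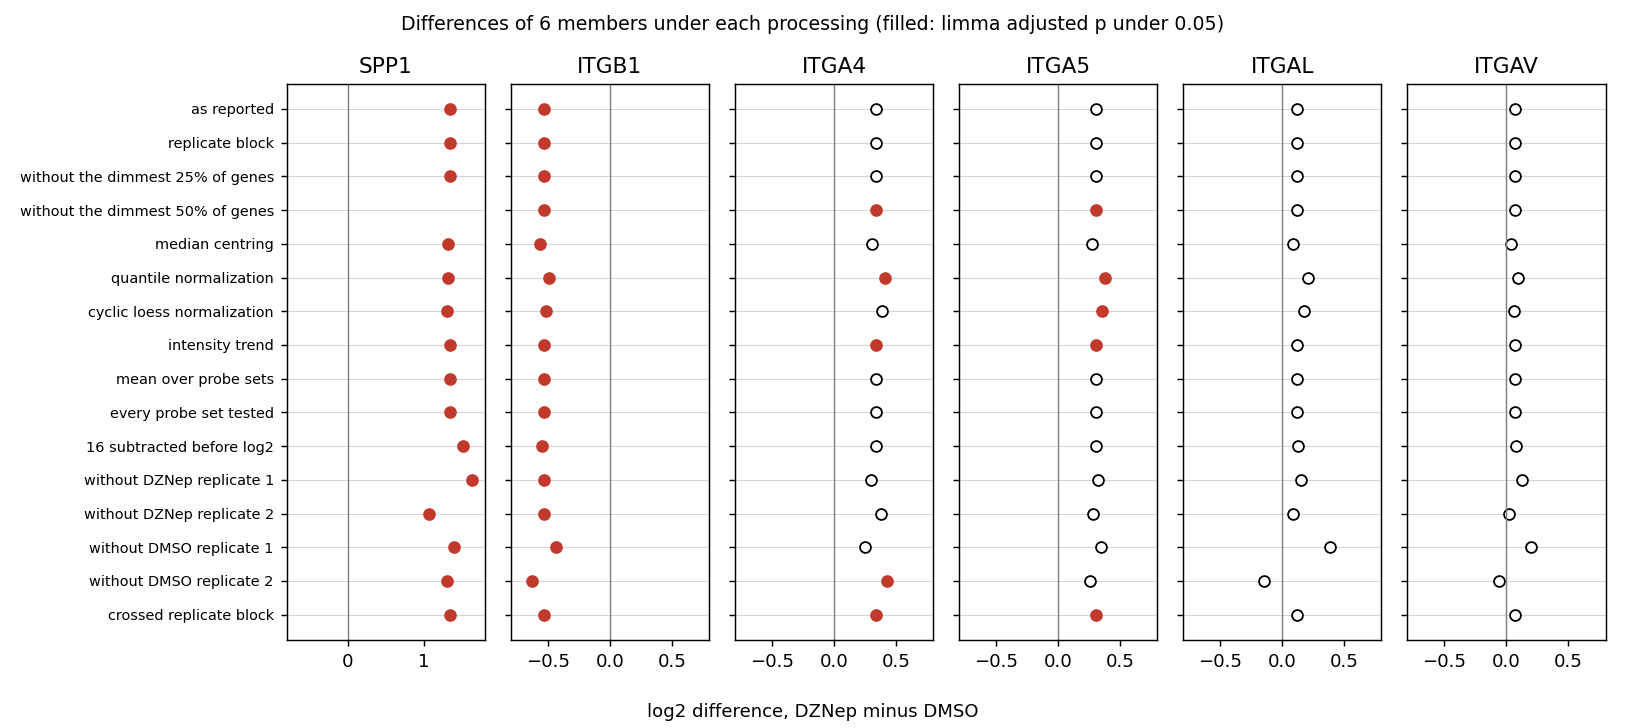
Log2 difference, DZNep minus DMSO, of 6 members (columns, horizontal axis; that of SPP1 is longer) as reported and under 15 alternatives (rows); filled red points have a limma adjusted p under 0.05. SPP1 stays filled wherever it was tested and ITGB1 in every row, ITGA4 and ITGA5 are filled in 5 rows each, and ITGAL and ITGAV cross 0 without DMSO replicate 2.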

How the data were processed

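Each array is 1 sample of MOLM-14 total RNA. Per the submitters' processing notes the authors used RMA, and the deposited table holds 1 linear intensity per probe set (28869) and array, lowest near 18 and highest 16502; neither its version and software nor any added constant is recorded in the labels. Log2 was taken with no pseudocount, further normalization or filter. Probe sets were named from the platform annotation, which can be old: 19310 carry 1 symbol, 1752 carry several and 7807 have no entry. RefSeq gives the same symbols for the 10 members. Genes were fitted with limma 3.58.1 in R 4.3.3 (lmFit, eBayes, group only, two-sided; 2 residual degrees of freedom and a prior worth 7.18). With 2 arrays against 2, no exact permutation p can go below 0.333. The script was tested on simulated data. The number of arrays limits the precision.

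Members, gene lists and alternatives were chosen with earlier results of these data known. Alternatives were a replicate block, dim filters, 3 normalizations, an intensity trend, other uses of probe sets, a subtracted constant and leaving out each array. Named genes are all members, up to 5 called genes of each list with the largest log2 difference, and the 3 genes nearest to the most changed member. Promoters of 7 members matched RefSeq windows, and where 2 windows are listed (ITGB1 and ITGAV) the one at the outermost start was used. The window of ITGA4 lies 181 bases from the outermost start, and proteins were not used here.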

Additional observations from a re-analysis of the deposited data

How the results depend on the processing

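SPP1 stayed higher and ITGB1 lower, both past the threshold, under every alternative that tested them; SPP1 was not tested without the dimmest 50% of genes. Log2 differences went from 1.06 to 1.63 for SPP1 and from -0.63 to -0.44 for ITGB1. Members called higher numbered 2 without the dimmest 50% of genes (ITGA4 and ITGA5), 2 under cyclic loess, 3 under quantile normalization and 3 with an intensity trend. More genes were called higher over the whole table in these fits too. They numbered 793 of 9188 fitted without the dimmest 50%, 749 under cyclic loess, 912 under quantile normalization and 946 with the trend. Uncalled members that turned sign without DMSO replicate 2 were ITGAL (-0.14, against 0.39 without DMSO replicate 1) and ITGAV (-0.056, against 0.20 without DMSO replicate 1). Over all genes, 665 were higher and 1227 lower; testing every probe set gave 388 and 779, and leaving out 1 array gave 336 to 776 and 734 to 1662. Across the alternatives, 0 to 1 other integrin subunits were called lower, 0 to 1 ligands lower, 0 to 4 activation genes higher, and 0 to 2 CD44 partners higher and 1 to 3 lower. The cause was not tested.

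Replicate numbers are shared by the groups, and the deviations of same-numbered arrays correlated at -0.219 over genes. With the replicate block, SPP1 kept 1.35 and ITGB1 -0.53, and 754 genes were higher and 1353 lower; RDX lost its call (adjusted p = 0.057) and 1 ligand was called lower. A crossed replicate block, added after seeing the data, called 3 members higher and 1034 genes higher and 1690 lower. In the replicate block fit, and without either DZNep array, limma gave every gene an equal standard error, so a gene's own spread had no weight there. Where 1 array was left out, the remaining array of its group was taken to vary as the other group does. Subtracting 16 from every intensity moved SPP1 to 1.52 and ITGB1 to -0.55.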
